A study of Marchantia polymorpha and Arabidopsis thaliana and Oryza sativa Japonica Group with 116 samples.

Results

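The SOS (salt overly sensitive) sodium export pathway and the sodium transporter gene HKT1 of Arabidopsis thaliana are described here across 4 genotypes and 4 treatments. The 5 genes were taken by locus identifier from a table of 32853 genes: SOS1 (AT2G01980), SOS2 (AT5G35410), SOS3 (AT5G24270), CBL10 (AT4G33000) and HKT1 (AT4G10310). All were found in the table and all passed the filter on low counts, which kept 20858 genes. In the TAIR10.1 annotation the genes lie as follows: SOS1 on chromosome 2 at 457002 to 463408 (plus strand), SOS2 on chromosome 5 at 13634399 to 13638375 (plus strand), SOS3 on chromosome 5 at 8238428 to 8243443 (minus strand), CBL10 on chromosome 4 at 15924349 to 15926665 (plus strand) and HKT1 on chromosome 4 at 6391854 to 6395922 (plus strand). In plants under salt, sodium raises cytosolic calcium, which is bound by the EF-hand calcium sensors SOS3, studied mainly in roots, and CBL10, studied mainly in shoots. Each sensor recruits and activates the protein kinase SOS2, which phosphorylates SOS1, a sodium/proton exchanger of the plasma membrane that moves sodium out of the cell. HKT1 is a sodium transporter of the vascular parenchyma that withdraws sodium from the xylem sap and so limits how much reaches the shoot.

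RNA-seq was carried out on whole seedlings aged 7 days that had grown in continuous light in a dilute liquid MS medium. The mutants were gpa1-3 (the canonical Gα subunit of heterotrimeric G proteins), agb1-2 (the Gβ subunit) and the triple mutant xlg1,2,3 (the extra-large Gα subunits), and the wild type was Col-0. Each genotype gave 3 libraries at each of 0 h, 2 h and 24 h in 100 mM NaCl. A further 2 libraries per genotype came from seedlings kept for 4 h in 0.3 µg/mL tunicamycin, an inhibitor of N-linked glycosylation that causes unfolded proteins to build up in the endoplasmic reticulum. The 16 groups held 44 libraries, which the series' design text calls biological replicates. No mock-treated group at 2, 4 or 24 h was analysed here, so an effect of elapsed time or handling cannot be told apart from that of the treatment. All treated groups of a genotype were compared with the same 0 h libraries, and all mutants with the same Col-0 libraries. How many plants each library pooled is not given in the sources used here, so the p-values reflect variation among libraries and that variation may be technical.

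Total counts per library lay between 14.1 and 39 M reads. All libraries numbered 3 were shallower (14.1 to 16.6 M reads) than all libraries numbered 1 and 2 (27.7 M reads or more). Levels are given in CPM, the count of a gene relative to the scaled size of its library. GPA1 was at 16.3 ± 0.925 CPM in gpa1-3 and 119 ± 5.62 CPM in Col-0 at 0 h (SD, n = 3 each). AGB1 transcript in the libraries labelled agb1-2 depended on the condition. At 0 h it was at 139 ± 18 CPM, against 130 ± 6.41 CPM in Col-0, with overlapping libraries. In NaCl it was lower, at 57.8 ± 1.47 CPM after 2 h, against 116 ± 12.5 CPM in Col-0 (edgeR adjusted p = 1.4e-08), and at 72.6 ± 3.98 CPM after 24 h, against 117 ± 11.3 CPM (adjusted p = 1.1e-05). Under tunicamycin it was higher, at 112 ± 13.5 CPM, against 72.1 ± 0.864 CPM (n = 2 each, adjusted p = 0.0021). At 0 h and under tunicamycin the transcript level therefore is no check on the label, and results for agb1-2 that use those libraries rest on the label alone. At 0 h in xlg1,2,3, XLG2 (16.8 ± 3.68 CPM, against 95.2 ± 1.46 CPM in Col-0) and XLG3 (12.3 ± 1.63 CPM, against 55.5 ± 4.29 CPM) were lower, while XLG1 was at 114 ± 5.74 CPM, against 68.5 ± 2.77 CPM. XLG1 was lower than in Col-0 under tunicamycin, at 71.6 ± 5.39 CPM, against 87.9 ± 6.68 CPM (adjusted p = 0.028). The seedlings expressed leaf genes strongly, with RBCS1A, the small subunit of Rubisco, at 3990 to 10100 CPM, and root genes weakly. Of 12 root tissue markers, COBL9, EXPA7, PRP3 and WOX5 had no reads in 8, 3, 15 and 9 of the 44 libraries, and SCR, a regulator of the endodermis that is also expressed in leaves, was the highest at 13.4 to 51.4 CPM.

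The stretch of 250 bases before the annotated transcript start is shown for SOS1 and HKT1, the only members with a single annotated start. A link between the letters marked in them and the response to NaCl was not tested. The sequences were read 5′ to 3′ from the TAIR10.1 genome, on the plus strand, at chr2:456752-457001 for SOS1 and chr4:6391604-6391853 for HKT1. Capitals mark the letters CACGTG in both and GTCGG in SOS1, which is the reverse complement of CCGAC.
SOS1: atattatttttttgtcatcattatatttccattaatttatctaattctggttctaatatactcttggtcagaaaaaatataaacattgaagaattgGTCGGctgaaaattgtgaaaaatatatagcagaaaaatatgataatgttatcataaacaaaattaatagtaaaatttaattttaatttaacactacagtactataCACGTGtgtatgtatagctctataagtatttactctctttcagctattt
HKT1: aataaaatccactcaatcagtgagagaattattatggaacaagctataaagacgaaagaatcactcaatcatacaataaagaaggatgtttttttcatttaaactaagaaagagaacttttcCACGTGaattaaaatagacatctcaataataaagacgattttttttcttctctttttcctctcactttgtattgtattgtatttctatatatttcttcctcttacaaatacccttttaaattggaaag
The palindrome CACGTG, known as the G-box, begins at position -49 from the SOS1 start and at -128 from the HKT1 start. It was searched with ACGTG (the core of abscisic acid response elements, which overlaps it on both strands), CCGAC (the core of drought and cold response elements, at -154 from the SOS1 start), TTGACC and TTGACT (W-box cores), on both strands. Of 27443 protein-coding gene windows of the same length, 6.49% held CACGTG, 22.9% ACGTG, 12% CCGAC, 12.2% TTGACC and 19.1% TTGACT. The corresponding window of SOS2 held TTGACT at -232 from its outermost start and none of the other letters. SOS3 and CBL10 have 3 annotated starts each, and the window before the outermost start of either held none of these letters, which says nothing of the other starts.

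**Figure D1:**
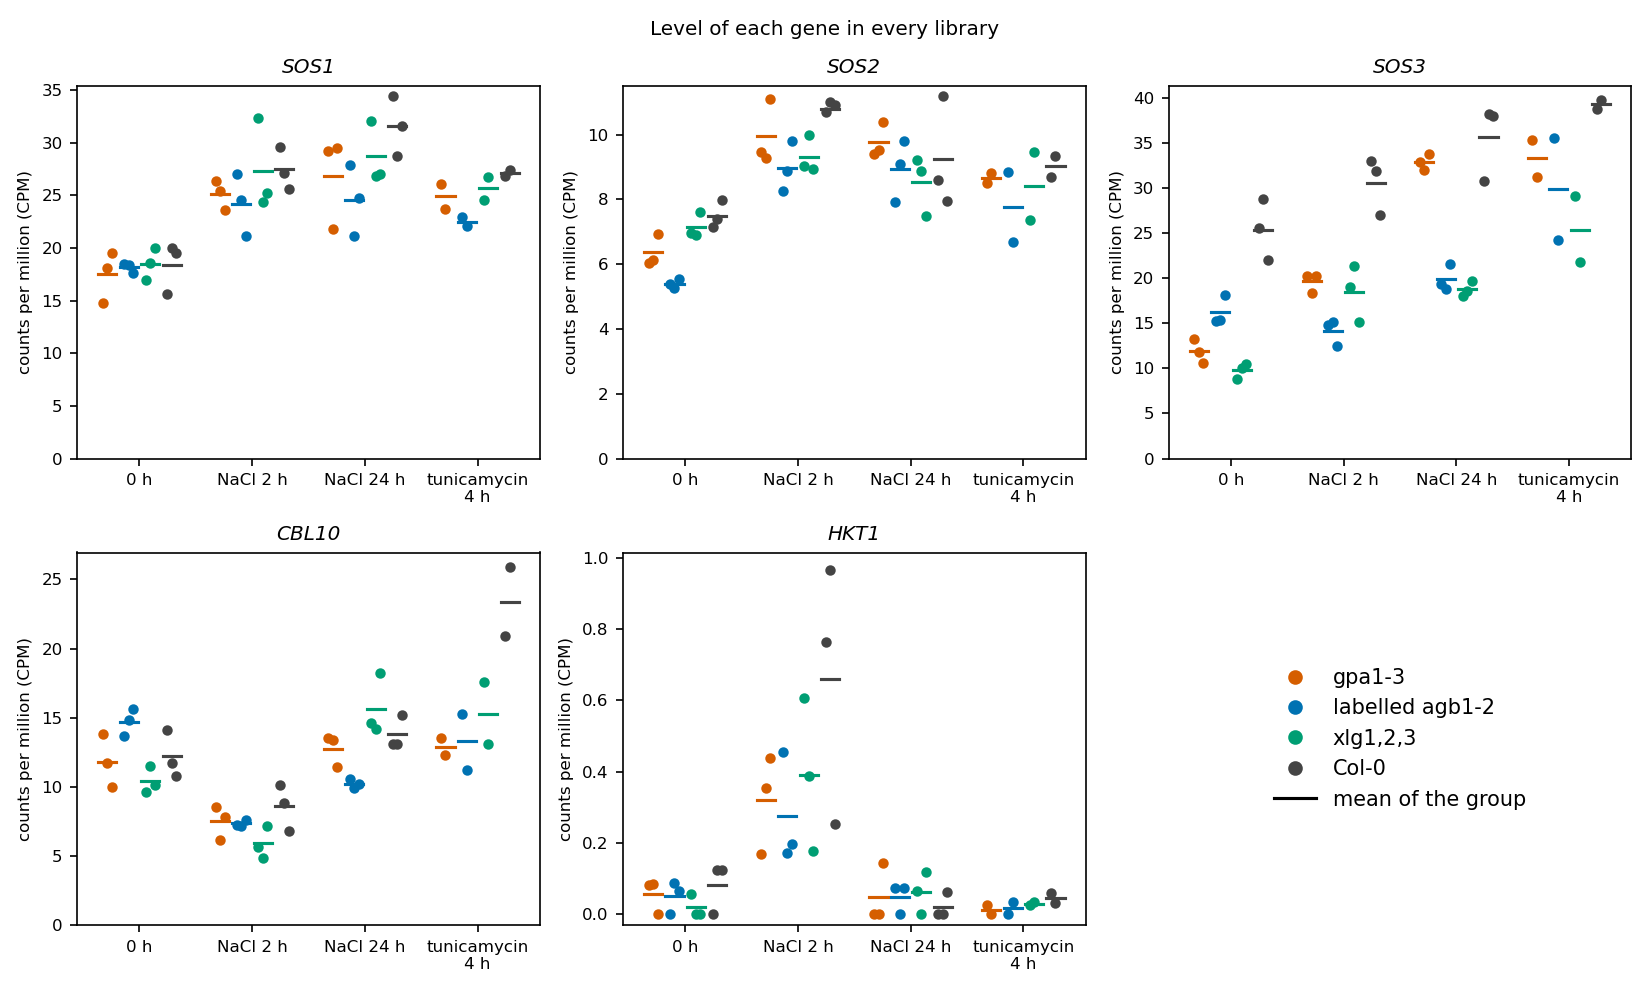
Level of each gene in CPM (vertical axis, linear, scales differ between panels) in each library (points) of 4 genotypes under 4 conditions, with group means as bars. SOS1 was lowest at 0 h in all genotypes, SOS3 was highest in Col-0 under all 4 conditions, and CBL10 was lowest and HKT1 highest after 2 h of NaCl.

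Per kilobase of annotated exon, group means of SOS1 lay between 4.63 and 8.38 CPM, of SOS2 between 2.56 and 5.15 CPM, of SOS3 between 2.22 and 8.9 CPM and of CBL10 between 4.15 and 16.5 CPM. HKT1 was far below them, at 0.00675 to 0.342 CPM per kilobase of exon. The place of SOS3 depends on the length used, because the exons of its 5 annotated transcripts together cover 4.42 kb, against 0.7 kb of coding sequence. Per kilobase of coding sequence SOS3 stood highest, at 14 to 56.3 CPM, against 7.16 to 28.4 CPM for CBL10 and 0.00857 to 0.434 CPM for HKT1. Between its lowest and highest group mean SOS1 varied 1.81-fold, SOS2 2.00-fold, CBL10 3.97-fold and SOS3 4.01-fold.

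The order of the 16 group means differed between the genes. For SOS1 the 4 groups at 0 h came last, at 17.5 to 18.5 CPM, and Col-0 after 24 h of NaCl came first at 31.6 CPM. Of the 15 pairs of neighbours in that order, 14 overlapped in their libraries, and only the step between the tunicamycin libraries labelled agb1-2 (22.5 CPM) and xlg1,2,3 at 0 h (18.5 CPM) did not. For SOS2, too, the 4 groups at 0 h came last, and 14 of 15 neighbours overlapped. For SOS3, Col-0 under tunicamycin led at 39.3 CPM and xlg1,2,3 at 0 h was last at 9.8 CPM, with 4 of 15 neighbouring pairs apart. For CBL10, Col-0 under tunicamycin stood alone at 23.4 CPM, and the 4 groups after 2 h of NaCl came last, at 5.9 to 8.58 CPM. For HKT1 the same 4 groups came first, at 0.275 to 0.661 CPM. Over the 16 group means on the log2 CPM scale, Pearson's r was 0.82 between SOS1 and SOS2, 0.61 between SOS1 and SOS3, 0.43 between SOS3 and CBL10 and -0.74 between CBL10 and HKT1, values given as a description of groups that share their treatments.

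HKT1 was tested only through its high libraries after 2 h of NaCl, so the counts of called genes in the Results that use them leave it out. The closing sections on flagged results and on processing keep it. After 2 h of NaCl, 4 of the other 4 genes were called in gpa1-3 (edgeR, adjusted p under 0.05), against 53.5% of all genes tested, 3 in the libraries labelled agb1-2 (54.3%), 4 in xlg1,2,3 (54.3%) and 3 in Col-0 (56.3%). After 24 h of NaCl 3 of the 5 genes were called in each genotype relative to 0 h, against 57.1% of all genes in gpa1-3, 60.2% in the libraries labelled agb1-2, 60.6% in xlg1,2,3 and 57.8% in Col-0. Under tunicamycin 3 were called in gpa1-3 (49.5% of all genes), 2 in the libraries labelled agb1-2 (43.9%), 3 in xlg1,2,3 (51.4%) and 3 in Col-0 (55.8%). Between 2 h and 24 h of NaCl, of the 4 genes other than HKT1, 2 were called in gpa1-3 (49.6%), 2 in the libraries labelled agb1-2 (53.5%), 1 in xlg1,2,3 (56.6%) and 1 in Col-0 (50.8%). With shares this high over the whole table, a call in a treated group is common for any gene. Libraries after 2 h of NaCl and at 0 h did not overlap for 58.8% to 63.8% of all genes, those after 24 h and at 0 h for 59.8% to 66.2%, those under tunicamycin and at 0 h for 63.0% to 71.0%, and those after 24 h and 2 h for 51.3% to 61.1%. Libraries of a mutant and of Col-0 did not overlap for 34.8% to 49.1% of all genes at 0 h, 23.4% to 42.6% at 2 h and 21.6% to 45.6% at 24 h. Under tunicamycin, with 2 libraries a group, the share was 48.3% to 56.8%. A gene whose libraries do not overlap is therefore common in each of these comparisons.

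SOS1, the exchanger itself, rose by 1.34- to 1.72-fold in NaCl in all 4 genotypes and by 1.39- to 1.48-fold in 3 of them under tunicamycin. At 2 h of NaCl it was at 26.4, 25.4 and 23.6 CPM in gpa1-3, against 14.8, 18.1 and 19.5 CPM at 0 h, and at 27.0, 24.6 and 21.1 CPM in the libraries labelled agb1-2, against 18.5, 18.4 and 17.6 CPM. In xlg1,2,3 it was at 32.3, 24.4 and 25.2 CPM, against 17.0, 18.6 and 20 CPM at 0 h. Col-0 had 29.6, 27.1 and 25.6 CPM after 2 h, against 15.6, 20 and 19.5 CPM. In all 4 genotypes each library after 2 h lay above each library at 0 h. The log2 changes were 0.53 ± 0.13 in gpa1-3, 0.42 ± 0.13 in the libraries labelled agb1-2, 0.57 ± 0.13 in xlg1,2,3 and 0.59 ± 0.13 in Col-0 (± SE), with adjusted p between 0.00016 and 0.005. As in all the bulk libraries of this set, more transcript per cell and more cells that express the gene cannot be told apart. The summed level of the 12 root tissue markers was also higher after 2 h than at 0 h. It was 39.3 to 50.5 CPM in gpa1-3, against 29.4 to 33.4 CPM, 50.6 to 53.8 CPM in the libraries labelled agb1-2, against 36.1 to 40.2 CPM. It was 51.9 to 66.3 CPM in xlg1,2,3, against 34.7 to 39.5 CPM, and 72.3 to 85.5 CPM in Col-0, against 35.2 to 39.2 CPM. SCR, which is also expressed in leaves, weighs most in this and the later sums of root markers. Its median over all libraries was 29.5 CPM, followed by PHO1 at 9.82 CPM. The single markers did not all move this way. In each genotype 5 were called higher (26.5% to 28.4% of all genes). Called lower were 1 in gpa1-3, 5 in the libraries labelled agb1-2, 2 in xlg1,2,3 and 0 in Col-0 (27.0% to 27.9%). Their median log2 changes were -0.13, -0.11, -0.01 and 0.12 in the same order. The part of the root markers in the SOS1 result was not tested.

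At 24 h of NaCl SOS1 stayed high. It was at 29.2, 21.8 and 29.5 CPM in gpa1-3, at 27.9, 21.1 and 24.7 CPM in the libraries labelled agb1-2, at 32.1, 26.8 and 27.0 CPM in xlg1,2,3 and at 34.4, 28.7 and 31.6 CPM in Col-0, all above the 0 h libraries of the same genotype. The rise was called in all 4 genotypes, with log2 changes of 0.44 in the libraries labelled agb1-2 to 0.79 in Col-0 (SE 0.13 each). Between 2 h and 24 h it was called in none of the 4 by edgeR or DESeq2, none had an unadjusted p under 0.05, and the log2 differences were 0.01 to 0.20. Under tunicamycin SOS1 was at 26.1 and 23.7 CPM in gpa1-3, at 22.9 and 22.1 CPM in the libraries labelled agb1-2, at 24.6 and 26.7 CPM in xlg1,2,3 and at 26.8 and 27.4 CPM in Col-0. These values also lay above all 0 h libraries of their genotype, and the rise was called in gpa1-3 (log2 0.52), xlg1,2,3 (0.47) and Col-0 (0.56), but not in the libraries labelled agb1-2 (0.31, adjusted p = 0.071, and 0.025 when only the groups compared were fitted). The call in xlg1,2,3 was lost without its second tunicamycin library (adjusted p = 0.052).

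The SOS1 level differed from Col-0 in a single comparison. At 24 h of NaCl it was 1.28-fold lower in the libraries labelled agb1-2 (log2 -0.36 ± 0.12, adjusted p = 0.022), and the libraries did not overlap. The call was lost without agb1-2 replicate 2 (adjusted p = 0.22) or 3 (0.07), without Col-0 replicate 1 (0.11), and without replicate 3 of every group (0.1). At 0 h the log2 differences from Col-0 were between -0.08 and 0.01 in the 3 mutants, with SE 0.13. No difference between the response of a mutant and that of Col-0 was called for SOS1 by edgeR or DESeq2, and none of the 9 had an unadjusted p under 0.05. The paralog closest to SOS1, NHX8 (AT1G14660), a plasma membrane exchanger whose reads could in part be shared with it, is one of the exchangers counted further on. After 2 h of NaCl its means were 5.37, 4.57, 6 and 6.6 CPM in gpa1-3, the libraries labelled agb1-2, xlg1,2,3 and Col-0, after 24 h they were 5.5, 4.06, 5.92 and 4.87 CPM, and at 0 h 8.02, 5.92, 5.82 and 6.83 CPM. The xlg1,2,3 means differed little between the 3 times, as did those of Col-0 at 2 h and 0 h, and the others were lower in NaCl than at 0 h.

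**Figure D2:**
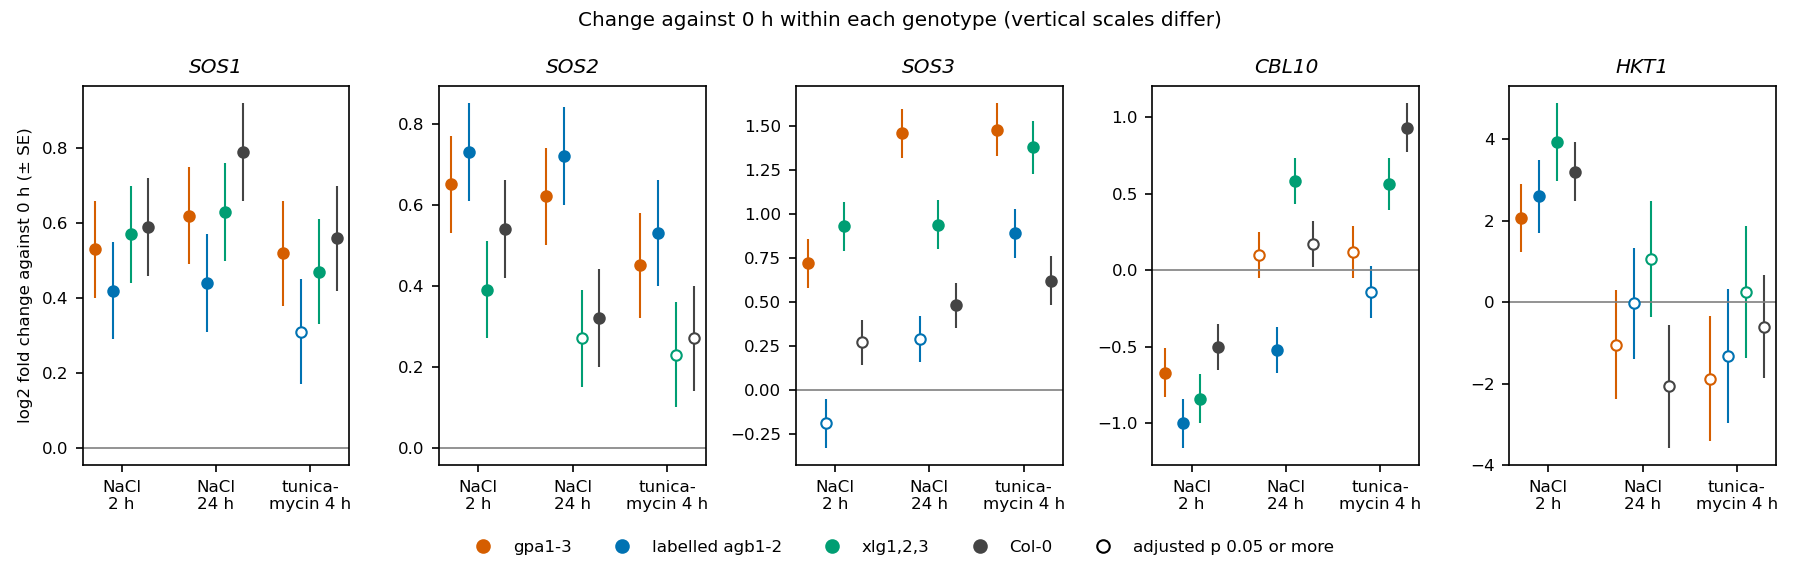
Log2 fold change against 0 h of the same genotype (vertical axis, ± SE) for 3 treatments and 4 genotypes, with filled points where the edgeR adjusted p was under 0.05. SOS1 points lie between 0.31 and 0.79 throughout, whereas SOS3 points in gpa1-3 and xlg1,2,3 lie above those of Col-0 and CBL10 falls in all genotypes at 2 h.

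SOS2, the kinase, rose after 2 h of NaCl in all 4 genotypes. It was at 9.47, 9.28 and 11.1 CPM in gpa1-3, against 6.02, 6.12 and 6.93 CPM at 0 h, and at 8.26, 8.87 and 9.79 CPM in the libraries labelled agb1-2, against 5.38, 5.25 and 5.54 CPM. The xlg1,2,3 libraries had 9.02, 9.98 and 8.93 CPM, against 6.96, 6.89 and 7.61 CPM. Col-0 had 10.7, 11 and 10.9 CPM, against 7.14, 7.38 and 7.97 CPM. No library after 2 h overlapped with one at 0 h. The log2 changes were 0.65 ± 0.12, 0.73 ± 0.12, 0.39 ± 0.12 and 0.54 ± 0.12 in gpa1-3, the libraries labelled agb1-2, xlg1,2,3 and Col-0, with the highest adjusted p at 0.0057.

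SOS2 at 24 h of NaCl was at 9.39, 9.52 and 10.4 CPM in gpa1-3, at 7.91, 9.08 and 9.79 CPM in the libraries labelled agb1-2, at 9.22, 8.86 and 7.49 CPM in xlg1,2,3 and at 8.59, 11.2 and 7.96 CPM in Col-0. The first 2 sets lay above their 0 h libraries without overlap, with log2 changes of 0.62 ± 0.12 and 0.72 ± 0.12, while the other 2 sets overlapped with theirs. The change was called in Col-0 (0.32 ± 0.12, adjusted p = 0.021) and not in xlg1,2,3 (0.27 ± 0.12), where the adjusted p of 0.05 was not below the threshold. In Col-0 the call was lost without its second library at 24 h (0.15, adjusted p = 0.3), or without 0 h replicate 1 (0.077) or 2 (0.054), and when only the groups compared were fitted (0.072). In xlg1,2,3 it was gained without replicate 3 at 0 h (0.045) or at 24 h (0.021), and without replicate 3 of every group (0.39, adjusted p = 0.024). From 2 h to 24 h no SOS2 change was called, with log2 differences of -0.22 to -0.01, except that Col-0 was lower at 24 h (-0.39, adjusted p = 0.009) without its second library at 24 h.

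Under tunicamycin SOS2 was called in gpa1-3 (8.5 and 8.81 CPM, log2 0.45 ± 0.13, adjusted p = 0.0039) and in the libraries labelled agb1-2 (8.84 and 6.69 CPM, log2 0.53 ± 0.13, adjusted p = 0.0012). The second of these calls was lost without agb1-2 tunicamycin replicate 1 (0.32, adjusted p = 0.12). In xlg1,2,3 (7.35 and 9.45 CPM) and Col-0 (8.7 and 9.34 CPM) it was not called, at log2 0.23 and 0.27, and in xlg1,2,3 it was called without tunicamycin replicate 1 (0.41, adjusted p = 0.033). Against Col-0, SOS2 was lower at 0 h in the libraries labelled agb1-2 (log2 -0.47 ± 0.12, 1.39-fold, adjusted p = 0.0028), whose 3 libraries all lay below those of Col-0. In gpa1-3 all libraries lay below those of Col-0 too, but the difference was not called (-0.24 ± 0.12, adjusted p = 0.2). After 2 h of NaCl the corresponding difference was -0.28 ± 0.12 (adjusted p = 0.057, and 0.041 without agb1-2 replicate 3). None of the 9 differences between a mutant's SOS2 response and that of Col-0 was called by edgeR or DESeq2. The libraries labelled agb1-2 at 24 h of NaCl were the only ones with an unadjusted p under 0.05 (0.41 ± 0.17, unadjusted p = 0.021, adjusted p = 0.077). That difference was called without agb1-2 NaCl 24 h replicate 1 (0.49, adjusted p = 0.043) or without Col-0 NaCl 24 h replicate 2 (0.57, adjusted p = 0.012).

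SOS3, the calcium sensor upstream of SOS2, was lower in all 3 mutants than in Col-0 at 0 h. At 0 h it was at 13.3, 11.8 and 10.6 CPM in gpa1-3, at 15.3, 15.4 and 18.2 CPM in the libraries labelled agb1-2 and at 8.86, 10.1 and 10.5 CPM in xlg1,2,3, against 25.6, 28.8 and 22.0 CPM in Col-0. No library of any mutant reached the lowest of Col-0, and libraries did not overlap for 35.1%, 49.1% and 34.8% of all genes in gpa1-3, the libraries labelled agb1-2 and xlg1,2,3. The differences were 2.14-fold lower in gpa1-3 (log2 -1.09 ± 0.13, adjusted p = 4e-07), 1.57-fold lower in the libraries labelled agb1-2 (-0.66 ± 0.13, adjusted p = 0.0003) and 2.62-fold lower in xlg1,2,3 (-1.39 ± 0.14, adjusted p = 3.8e-09). The 3 calls held under DESeq2, the other scaling, no filter, the replicate block, no rounding, the fit without replicate 3, the fit of the groups compared alone, and without any single library. SOS3 was the only gene of the 5 called in gpa1-3 and xlg1,2,3 at 0 h, where 13.7% and 16.3% of all genes were called, and it was 1 of 2 in the libraries labelled agb1-2, where 31.6% were called. The summed level of the 12 root tissue markers at 0 h was 29.4 to 33.4 CPM in gpa1-3, 36.1 to 40.2 CPM in the libraries labelled agb1-2 and 34.7 to 39.5 CPM in xlg1,2,3, against 35.2 to 39.2 CPM in Col-0. Of the single root markers 1, 4 and 4 were called higher and 1, 2 and 3 lower in the same order (median log2 0.02, 0.36 and 0.43). The summed level of 6 leaf photosynthesis markers was higher in the mutants, at 13600 to 14700, 14600 to 17000 and 11800 to 12400 CPM in the same order, against 10900 to 11200 CPM in Col-0. Of the 6, 4, 6 and 1 were called higher and 0 lower (median log2 0.52, 0.61 and 0.14). Over all genes 6.1%, 13.8% and 7.79% were higher and 7.6%, 17.7% and 8.5% lower. The part of either list in the SOS3 difference was not tested.

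After 2 h of NaCl SOS3 was at 20.3, 18.4 and 20.3 CPM in gpa1-3 and at 19.0, 21.4 and 15.1 CPM in xlg1,2,3, in both cases above every 0 h library of the genotype. The rise was called in gpa1-3 (log2 0.72 ± 0.14, adjusted p = 3.4e-05) and xlg1,2,3 (0.93 ± 0.14, adjusted p = 6.3e-07). The libraries labelled agb1-2 had 14.8, 15.2 and 12.5 CPM, all below those at 0 h but not called (-0.19 ± 0.14, adjusted p = 0.25), and Col-0 was at 33, 31.9 and 27 CPM (0.27 ± 0.13, adjusted p = 0.081). The Col-0 change was called without Col-0 0 h replicate 2 (0.36, adjusted p = 0.036) or without Col-0 NaCl 2 h replicate 3 (0.35, adjusted p = 0.038). Against Col-0, SOS3 was lower after 2 h in gpa1-3 (-0.64 ± 0.13), in the libraries labelled agb1-2 (-1.11 ± 0.13) and in xlg1,2,3 (-0.72 ± 0.13), with adjusted p of 0.00037 or less and with no overlap of libraries. Of the 4 genes other than HKT1 it alone was called in gpa1-3 and in the libraries labelled agb1-2 (22.0% and 34.1% of all genes). It was 1 of 2 called in xlg1,2,3 (14.0%).

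At 24 h of NaCl SOS3 in gpa1-3 stood near Col-0, while the other mutants stayed below it. It was at 32.9, 32.0 and 33.8 CPM in gpa1-3, at 19.4, 18.8 and 21.6 CPM in the libraries labelled agb1-2 and at 18.0, 18.6 and 19.7 CPM in xlg1,2,3, against 30.8, 38.2 and 38.0 CPM in Col-0. The difference from Col-0 was -0.12 ± 0.13 in gpa1-3 (adjusted p = 0.65), with overlapping libraries, -0.84 ± 0.13 in the libraries labelled agb1-2 (adjusted p = 6.1e-06) and -0.93 ± 0.13 in xlg1,2,3 (adjusted p = 4.7e-06), both apart from Col-0. None of the 5 genes was called in gpa1-3 against Col-0 at 24 h by edgeR or DESeq2 and none had an unadjusted p under 0.05, while 7.93% of all genes were called. In the libraries labelled agb1-2 3 of 5 were called (35.4% of all genes) and in xlg1,2,3 1 of 5 (19.5%). Relative to 0 h SOS3 rose 2.75-fold in gpa1-3 (log2 1.46 ± 0.14), 1.92-fold in xlg1,2,3 (0.94 ± 0.14) and 1.40-fold in Col-0 (0.48 ± 0.13), and was not called in the libraries labelled agb1-2 (0.29 ± 0.13, adjusted p = 0.06). The agb1-2 change was called without its 0 h replicate 3 (0.37, adjusted p = 0.033) or when only the groups compared were fitted (0.26, adjusted p = 0.039), and the Col-0 call was lost without replicate 3 of every group (0.34, adjusted p = 0.058). From 2 h to 24 h SOS3 rose in gpa1-3 (0.74 ± 0.13, adjusted p = 1.9e-05) and in the libraries labelled agb1-2 (0.48 ± 0.14, adjusted p = 0.0033), the second of which was lost without replicate 3 of every group (0.35, adjusted p = 0.069). The change from 2 h to 24 h was 0.01 ± 0.13 in xlg1,2,3 and 0.22 ± 0.13 in Col-0, neither of them called.

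SOS3 rose under tunicamycin in all 4 genotypes. It was at 35.4 and 31.2 CPM in gpa1-3, at 35.6 and 24.3 CPM in the libraries labelled agb1-2, at 29.1 and 21.8 CPM in xlg1,2,3 and at 38.8 and 39.8 CPM in Col-0. Each of these libraries lay above all 0 h libraries of its genotype (63.0% to 71.0% of all genes did not overlap), and the mutant libraries all lay below the Col-0 ones (48.3% to 56.8% of all genes). Relative to 0 h the level was 2.78-fold higher in gpa1-3 (log2 1.48 ± 0.15), 1.85-fold in the libraries labelled agb1-2 (0.89 ± 0.14), 2.61-fold in xlg1,2,3 (1.38 ± 0.15) and 1.54-fold in Col-0 (0.62 ± 0.14). Against Col-0 under tunicamycin it was lower in xlg1,2,3 (-0.63 ± 0.16, adjusted p = 0.0062) and not called in gpa1-3 (-0.24 ± 0.16, adjusted p = 0.31) or in the libraries labelled agb1-2 (-0.39 ± 0.16, adjusted p = 0.12). The xlg1,2,3 call was lost without its second library (-0.44, adjusted p = 0.19) or without the second of Col-0 (-0.61, adjusted p = 0.054), or with only the groups compared fitted (0.066), and the agb1-2 difference was called without its first (-0.70, adjusted p = 0.016). The 12 root markers summed to 55.8 to 56.1 CPM in gpa1-3 under tunicamycin, 64.3 to 68.3 CPM in the libraries labelled agb1-2, 66.1 to 66.8 CPM in xlg1,2,3 and 78.9 to 85 CPM in Col-0. After 24 h of NaCl they summed to 72.1 to 81.4, 68.1 to 76.7, 69.4 to 78.7 and 60.5 to 72.1 CPM in the same genotypes. All these sums lay above the 0 h range of the genotype. The median log2 change of the single markers was 0.69, 0.09, 0.40 and 0.83 under tunicamycin and 0.96, 0.86, 0.79 and 0.32 at 24 h, in the same order. The part of the root markers in the SOS3 changes was not tested.

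**Figure D3:**
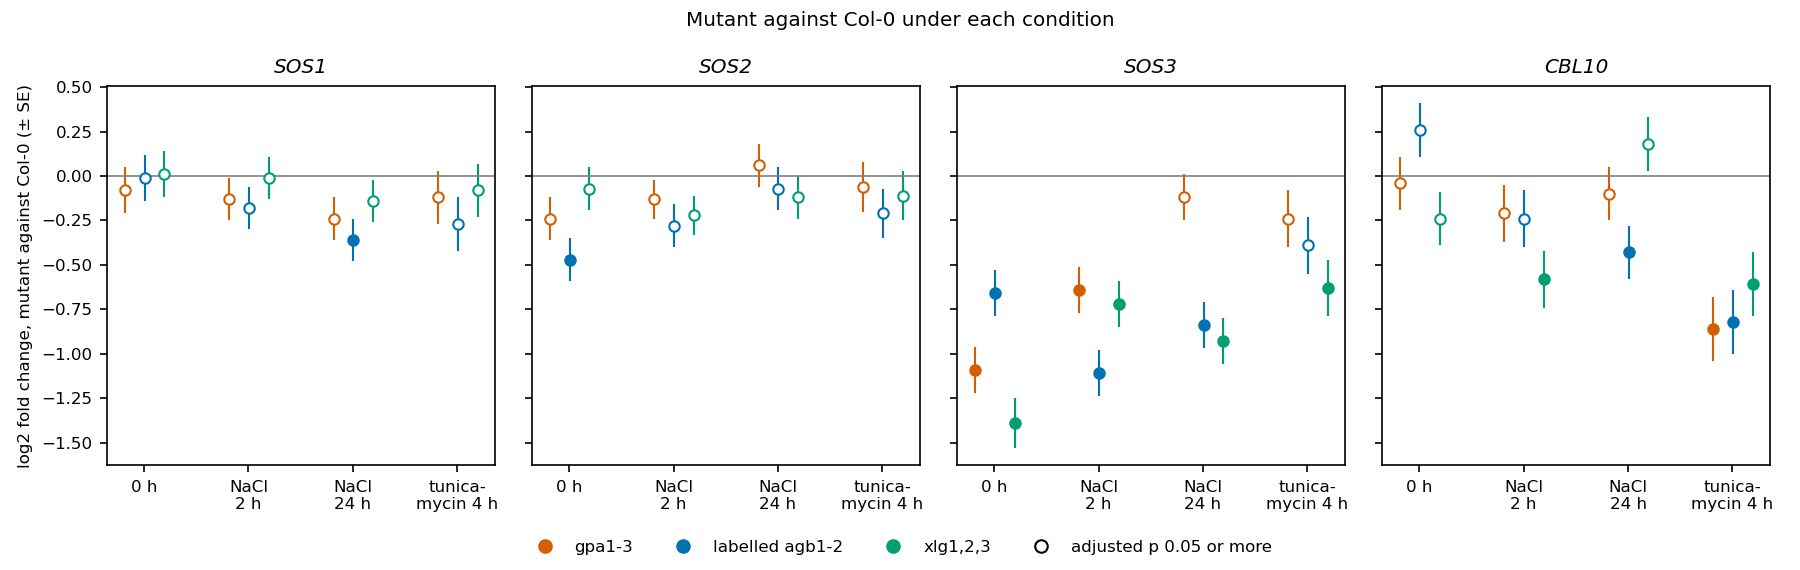
Log2 fold change of each mutant against Col-0 (vertical axis, ± SE, same scale in all panels) under 4 conditions, with filled points where the edgeR adjusted p was under 0.05. All SOS3 points lie below 0, between -1.39 and -0.12, the lowest CBL10 points are those under tunicamycin, and 1 point each of SOS1 and SOS2 is filled.

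The SOS3 response itself differed from that of Col-0 in 4 of 9 tests, each larger in the mutant. In these 9 comparisons 2.63% to 23.6% of all genes were called. In gpa1-3 the log2 rise was larger by 0.98 ± 0.19 at 24 h of NaCl (adjusted p = 0.0012) and by 0.85 ± 0.21 under tunicamycin (adjusted p = 0.0039), and both calls held under the alternatives named above and without any single library. In xlg1,2,3 it was larger by 0.76 ± 0.21 under tunicamycin (adjusted p = 0.022) and by 0.67 ± 0.19 after 2 h of NaCl (adjusted p = 0.048). The first of these was lost without xlg1,2,3 0 h replicate 1 (adjusted p = 0.062), without Col-0 0 h replicate 2 (0.073), without xlg1,2,3 tunicamycin replicate 1 (0.54, adjusted p = 0.22), without Col-0 tunicamycin replicate 1 (0.062) or 2 (0.09), and with only the groups compared fitted (0.052). The 2 h difference was lost without 10 of the 12 libraries taken one at a time, all except Col-0 0 h replicate 3 and xlg1,2,3 NaCl 2 h replicate 3, with adjusted p of 0.053 to 0.17. It was also lost with the size factors of DESeq2 (0.06), without the filter on low counts (0.078) and with only the groups compared fitted (0.17). The differences not called were 0.45 ± 0.19 in gpa1-3 and -0.45 ± 0.19 in the libraries labelled agb1-2 after 2 h. At 24 h they were 0.46 ± 0.19 in xlg1,2,3 and -0.19 ± 0.19 in the libraries labelled agb1-2, and 0.26 ± 0.20 in the libraries labelled agb1-2 under tunicamycin. All of them share the 0 h Col-0 libraries, in which SOS3 was high.

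CBL10, the other calcium sensor, fell after 2 h of NaCl in all 4 genotypes and was higher again at 24 h. At 2 h it was at 8.52, 6.13 and 7.81 CPM in gpa1-3, against 13.8, 11.7 and 9.99 CPM at 0 h, and at 7.27, 7.17 and 7.62 CPM in the libraries labelled agb1-2, against 13.7, 14.8 and 15.6 CPM. For xlg1,2,3 the values were 5.67, 4.87 and 7.15 CPM, against 9.61, 11.5 and 10.1 CPM at 0 h. Col-0 had 10.1, 8.85 and 6.82 CPM after 2 h, against 14.1, 11.7 and 10.8 CPM. Every library after 2 h lay below every 0 h library of its genotype. The log2 changes were -0.67 ± 0.16 in gpa1-3, -1.0 ± 0.16 in the libraries labelled agb1-2, -0.84 ± 0.16 in xlg1,2,3 and -0.50 ± 0.15 in Col-0, with adjusted p of 0.0064 or less. The Col-0 call was lost without Col-0 0 h replicate 1 (-0.38, adjusted p = 0.064) or without Col-0 NaCl 2 h replicate 3 (-0.37, adjusted p = 0.053). CBL10 overlaps GLDP1, an abundant leaf gene on the opposite strand, by 14 bases, and whether counting used the strand is not given in the sources used here. GLDP1 averaged 1740 ± 306 CPM in gpa1-3 after 2 h, against 1470 ± 99.4 CPM at 0 h, and 2760 ± 267 CPM in the libraries labelled agb1-2, against 1820 ± 170 CPM (SD, n = 3 each). The xlg1,2,3 libraries averaged 1900 ± 415 CPM after 2 h, against 1820 ± 105 CPM, and in Col-0 2260 ± 938 CPM, against 1000 ± 63.8 CPM. The summed level of the 6 leaf photosynthesis markers, GLDP1 among them, was lower after 2 h in gpa1-3, at 11400 to 12300 CPM, against 13600 to 14700 CPM, and in xlg1,2,3, at 8570 to 9700 CPM, against 11800 to 12400 CPM. It overlapped with 0 h in the libraries labelled agb1-2 (15500 to 16700 CPM, against 14600 to 17000 CPM) and in Col-0 (9430 to 11700 CPM, against 10900 to 11200 CPM). Of the 6 markers, 0, 2, 1 and 2 were called higher and 3, 1, 3 and 2 lower in gpa1-3, the libraries labelled agb1-2, xlg1,2,3 and Col-0. Over all genes 26.5% to 28.4% were higher and 27.0% to 27.9% lower. The part of GLDP1 and of the leaf markers in the CBL10 fall was not tested.

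At 24 h of NaCl CBL10 was at 13.5, 13.4 and 11.4 CPM in gpa1-3, at 10.6, 9.89 and 10.2 CPM in the libraries labelled agb1-2, at 14.6, 14.2 and 18.2 CPM in xlg1,2,3 and at 13.1, 13.1 and 15.2 CPM in Col-0. Against 2 h it was higher in all 4, by log2 0.77 ± 0.16, 0.48 ± 0.16, 1.42 ± 0.16 and 0.66 ± 0.15 in the same order, with no overlap of libraries. Relative to 0 h, CBL10 rose in xlg1,2,3 (0.58 ± 0.15, adjusted p = 0.0014), fell in the libraries labelled agb1-2 (-0.52 ± 0.15, adjusted p = 0.004) and was not called in gpa1-3 (0.10 ± 0.15) or Col-0 (0.17 ± 0.15). The response of the libraries labelled agb1-2 was lower than that of Col-0 (log2 -0.69 ± 0.22, adjusted p = 0.019). The same difference was called lower for 4 of the 6 leaf markers (median log2 -0.57), and their part in the CBL10 difference was not tested. That call was lost without agb1-2 NaCl 24 h replicate 2 (adjusted p = 0.05), without Col-0 0 h replicate 3 (0.052) and without replicate 3 of every group (-0.50, adjusted p = 0.17). The 2 h differences of response, -0.17 to -0.50, were not called. Of the 4 genes other than HKT1, none was called for that difference in gpa1-3 (4.79% of all genes) or in the libraries labelled agb1-2 (13.2%). This held by edgeR and by DESeq2, with 1 and 2 genes at an unadjusted p under 0.05. At 2 h 1 of the same 4 was called in xlg1,2,3 (2.63% of all genes, 549 genes, with 303 to 1053 when single libraries were left out). At 24 h, of all 5, 1 was called in gpa1-3 (5.69%) and 1 in the libraries labelled agb1-2 (23.6%). In xlg1,2,3 none was called at 24 h (9.23%, with 1 gene at an unadjusted p under 0.05 and none by DESeq2).

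Under tunicamycin CBL10 rose 1.47-fold in xlg1,2,3, to 17.6 and 13.1 CPM (log2 0.56 ± 0.17, adjusted p = 0.005), and 1.91-fold in Col-0, to 20.9 and 25.9 CPM (0.93 ± 0.16, adjusted p = 9.2e-06). It was at 13.5 and 12.3 CPM in gpa1-3 (0.12 ± 0.17) and at 15.3 and 11.2 CPM in the libraries labelled agb1-2 (-0.14 ± 0.17), where the libraries overlapped with those at 0 h and no call was made. The xlg1,2,3 call was lost without its first tunicamycin library (0.33, adjusted p = 0.2). All mutant libraries lay below both Col-0 libraries (56.8%, 48.3% and 52.7% of all genes did not overlap in gpa1-3, the libraries labelled agb1-2 and xlg1,2,3), with log2 differences of -0.86 ± 0.18 in gpa1-3 (adjusted p = 0.00067), -0.82 ± 0.18 in the libraries labelled agb1-2 (adjusted p = 0.0026) and -0.61 ± 0.18 in xlg1,2,3 (adjusted p = 0.019). Members called against Col-0 under tunicamycin numbered 1 of 5 in gpa1-3 (19.9% of all genes), 1 in the libraries labelled agb1-2 (8.87%) and 2 in xlg1,2,3 (13.2%). The agb1-2 and xlg1,2,3 calls were lost without the second Col-0 library (adjusted p = 0.09 and 0.25), without the second library of the mutant (0.11 and 0.3) and with only the groups compared fitted (0.064 and 0.11). The all-gene counts behind these shares, and behind those of the response differences under tunicamycin, were over 1.5 times smaller without Col-0 tunicamycin replicate 2. In xlg1,2,3 the 6 leaf markers summed to 10800 to 12200 CPM under tunicamycin, against 11800 to 12400 CPM at 0 h. In Col-0 they summed to 13900 to 18500 CPM, against 10900 to 11200 CPM. In gpa1-3 they were lower, at 10600 to 11400 CPM, against 13600 to 14700 CPM, and in the libraries labelled agb1-2 they were at 13100 to 16100 CPM, against 14600 to 17000 CPM. GLDP1 alone averaged 2650 ± 226 CPM in xlg1,2,3 under tunicamycin and 3190 ± 859 CPM in Col-0 (SD, n = 2 each). The part of GLDP1 and of the leaf markers in the CBL10 changes under tunicamycin was not tested.

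The CBL10 response to tunicamycin was lower than that of Col-0 in gpa1-3 (-0.82 ± 0.23, adjusted p = 0.014) and in the libraries labelled agb1-2 (-1.07 ± 0.23, adjusted p = 0.0031), and the difference was not called in xlg1,2,3 (-0.37 ± 0.23, adjusted p = 0.44). The leaf markers moved in the same direction, with 6 of 6 called lower for this difference in gpa1-3, 4 of 6 in the libraries labelled agb1-2 and 3 of 6 in xlg1,2,3 (median log2 -1.01, -0.68 and -0.77), and their part in the CBL10 differences was not tested. The gpa1-3 call was lost without gpa1-3 0 h replicate 1 (adjusted p = 0.054), without gpa1-3 tunicamycin replicate 2 (0.076) and without Col-0 tunicamycin replicate 2 (0.13), while the agb1-2 call held without any single library. With SOS3, 2 of 5 genes were called for this difference in gpa1-3 (15.9% of all genes), 1 in the libraries labelled agb1-2 (11.4%) and 1 in xlg1,2,3 (5.71%). Against Col-0 after 2 h of NaCl, CBL10 was lower in xlg1,2,3 (-0.58 ± 0.16, adjusted p = 0.012), although the libraries overlapped, and the call was lost without xlg1,2,3 replicate 2 (0.091) or Col-0 replicate 1 (0.087), or with only the groups compared fitted (0.14). At 24 h it was lower in the libraries labelled agb1-2 (-0.43 ± 0.15, adjusted p = 0.029), which did not overlap with Col-0. This call was lost without agb1-2 replicate 2 (0.12) or 3 (0.086) or Col-0 replicate 3 (0.11), without the filter on low counts (0.052) and without replicate 3 of every group (0.14).

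HKT1 was close to the limit of detection in these whole seedlings and rose after 2 h of NaCl. Its counts after 2 h were 6, 10 and 7 in gpa1-3, 17, 5 and 3 in the libraries labelled agb1-2, 23, 11 and 3 in xlg1,2,3 and 28, 30 and 4 in Col-0. At 0 h the counts were 3, 3 and 0 in gpa1-3, 0, 3 and 1 in the libraries labelled agb1-2, 2, 0 and 0 in xlg1,2,3 and 0, 4 and 2 in Col-0. On the CPM scale each library after 2 h (0.168 to 0.966 CPM) lay above all libraries at 0 h (0 to 0.124 CPM). From summed counts and library sizes the ratio of 2 h to 0 h was 4.21 in gpa1-3 (exact 95% interval 1.67 to 12.6), 6.87 in the libraries labelled agb1-2 (2.37 to 27.2), 18.9 in xlg1,2,3 (4.86 to 161) and 10.4 in Col-0 (4.52 to 29.4). These intervals cover counting error only. HKT1 passed the filter on low counts through its libraries after 2 h, since no other library exceeded 0.143 CPM, so its calls there are a description and support nothing. The edgeR adjusted p was 0.036, 0.014, 0.00071 and 0.00033 in the order of the ratios. The gpa1-3 call was lost without any of its 3 libraries at 0 h or without NaCl 2 h replicate 2 or 3 (adjusted p = 0.062 to 0.099) and without replicate 3 of every group (0.18). The agb1-2 call was lost without its 0 h replicate 1 (0.11) or NaCl 2 h replicate 1 (0.15).

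**Figure D4:**
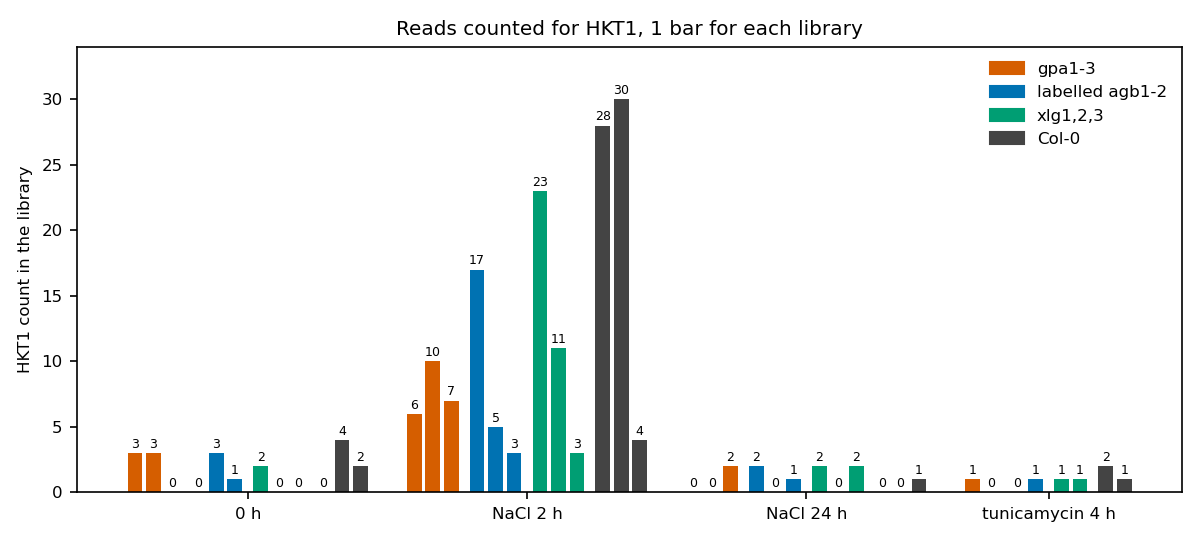
Count of reads for HKT1 (vertical axis) in each of 44 libraries (bars), grouped by condition and coloured by genotype. Counts reach 30 after 2 h of NaCl and stay at 4 or less at 0 h and at 2 or less after 24 h of NaCl and under tunicamycin.

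HKT1 counts were low again at 24 h. Over the 12 libraries at 24 h of NaCl HKT1 had 10 counts in all, 0 to 2 per library, and over the 8 tunicamycin libraries 7 counts, 0 to 2 per library, against 18 counts over the 12 libraries at 0 h. The ratio of 24 h to 2 h was 0.103 in gpa1-3 (0.0117 to 0.415), 0.143 in the libraries labelled agb1-2 (0.0277 to 0.469), 0.12 in xlg1,2,3 (0.0311 to 0.334) and 0.0184 in Col-0 (0.000459 to 0.106), and the fall was called in all 4. These calls use the same libraries after 2 h that let the gene pass the filter, so they too are a description and support nothing. The gpa1-3 call was lost without NaCl 24 h replicate 1 or 2 (adjusted p = 0.079 and 0.072), and the agb1-2 call without NaCl 2 h replicate 1 (0.18) or NaCl 24 h replicate 2 (0.11). Between 24 h of NaCl or tunicamycin and 0 h no change was detectable at this depth. The ratio of gpa1-3 to Col-0 after 2 h of NaCl was 0.387 (0.229 to 0.634), that of the libraries labelled agb1-2 0.414 (0.249 to 0.668) and that of xlg1,2,3 0.599 (0.388 to 0.915). By edgeR, which takes in the spread between libraries, and by DESeq2 none of these differences was called (edgeR adjusted p = 0.13, 0.091 and 0.43, with 2 of 3 at an unadjusted p under 0.05). Col-0 replicate 3 had 0.253 CPM, and replicates 1 and 2 had 0.764 and 0.966 CPM. The agb1-2 difference was called without Col-0 replicate 3 (adjusted p = 0.044) or without agb1-2 replicate 1 (0.047). These comparisons of mutants with Col-0 also use the libraries after 2 h that let the gene pass the filter, and their intervals cover counting error only. They too are a description and support nothing.

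The other calcium sensors of the CBL family, which pair with the CIPK kinases as SOS3 and CBL10 pair with SOS2, were described from a list of 8, of which 5 were tested (CBL5, CBL7 and CBL8 did not pass the filter). After 2 h of NaCl of all genes, 26.5% rose and 27.0% fell in gpa1-3, 26.7% and 27.6% in the libraries labelled agb1-2, 27.0% and 27.3% in xlg1,2,3, and 28.4% and 27.9% in Col-0. Among the 5 sensors, 2 rose and 1 fell in gpa1-3, 1 rose and 1 fell in the libraries labelled agb1-2, 2 rose in xlg1,2,3 and 2 rose in Col-0, counts of so few genes that they cannot be told from these shares. The 2 in Col-0 were CBL9, at 14.2 ± 3.57 CPM against 3.96 ± 0.279 CPM at 0 h, and CBL6, at 7.77 ± 2.77 CPM against 1.51 ± 0.357 CPM (SD, n = 3 each, adjusted p = 1.8e-10 and 9.3e-09). CBL6 was lower than Col-0 after 2 h in every mutant, at 1.28 ± 0.247 CPM in gpa1-3, 1.2 ± 0.254 CPM in those labelled agb1-2, and 2.36 ± 0.585 CPM in xlg1,2,3. These levels are 5.93-, 6.31- and 3.29-fold lower. At 0 h it was also lower in all 3, by 2.12-, 2.24- and 2.24-fold (adjusted p = 0.025, 0.008 and 0.015). CBL9 after 2 h was at 7.52 ± 1.91 CPM in gpa1-3, 5.58 ± 0.355 CPM in those labelled agb1-2, and 10 ± 2.04 CPM in xlg1,2,3, each lower than Col-0 (adjusted p = 0.00014, 2.7e-07 and 0.045). At 24 h of NaCl 1 of the 5 sensors rose and 2 fell in Col-0 (29.0% of all genes higher and 28.8% lower). CBL3 and CBL1 fell (1.59- and 2.34-fold) and CBL2 rose (1.5-fold). Under tunicamycin 3 rose and 1 fell in Col-0 (28.2% and 27.6%). Those with the smallest p were CBL9 and CBL2, which rose (2.30- and 1.45-fold), and CBL1, which fell (3.10-fold).

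Among 24 of 25 other CIPK kinases tested, 13 rose and 4 fell in gpa1-3 after 2 h of NaCl, 16 rose and 3 fell in the libraries labelled agb1-2, 13 rose and 3 fell in xlg1,2,3, and 13 rose and 4 fell in Col-0. The median log2 changes of the kinases were 0.31, 0.41, 0.47 and 0.32 in that order, while the median over all genes was -0.02 to -0.01. Over all genes 26.5% to 28.4% rose and 27.0% to 27.9% fell after 2 h. Those with the smallest p in Col-0 were CIPK16 (3.24-fold), CIPK21 (2.25-fold) and CIPK6 (2.22-fold). At 24 h the counts in Col-0 were 7 higher and 6 lower (29.0% and 28.8% of all genes), led by CIPK16 (4.59-fold), CIPK3 (2.47-fold) and CIPK17 (3.97-fold). Under tunicamycin 9 rose and 8 fell (28.2% and 27.6% of all genes), with CIPK9 3.37-fold lower, CIPK16 3.06-fold higher and CIPK26 1.92-fold higher. At 0 h 4 kinases were higher and 3 lower in gpa1-3 than in Col-0, 3 higher and 9 lower in the libraries labelled agb1-2, and 2 higher and 5 lower in xlg1,2,3. Over all genes these shares were 6.1% higher and 7.6% lower in gpa1-3, 13.8% and 17.7% in the libraries labelled agb1-2, and 7.79% and 8.5% in xlg1,2,3. Those named by p were CIPK3, CIPK20 and CIPK14 in gpa1-3 (1.37-, 1.42- and 1.54-fold higher), CIPK12, CIPK9 and CIPK17 in the libraries labelled agb1-2 (1.53-, 1.58- and 1.93-fold lower) and CIPK21, CIPK16 and CIPK5 in xlg1,2,3 (1.45-, 1.60- and 1.57-fold lower).

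A list of 11 cation/proton exchangers and proton pumps was tested in full. It holds the pumps AHA1, AHA2 and VHP1, which build proton gradients, sodium/proton exchangers of vacuoles and endosomes, NHX8 of the plasma membrane and the calcium/proton exchanger CAX1. At 2 h of NaCl 7 rose and 2 fell in gpa1-3, 5 rose and 3 fell in the libraries labelled agb1-2, 6 rose and 1 fell in xlg1,2,3 and 7 rose and 1 fell in Col-0, with median log2 changes of 0.54, 0.32, 0.47 and 0.45. The all-gene shares given above were 26.5% to 28.4% higher and 27.0% to 27.9% lower. In Col-0 NHX6, an endosomal exchanger, was at 12.4 ± 0.348 CPM after 2 h, against 3.84 ± 0.653 CPM at 0 h, and the plasma membrane proton pumps AHA2 and AHA1 rose 2.55- and 1.58-fold. At 24 h 5 rose and 3 fell in Col-0 (29.0% and 28.8% of all genes), among them NHX6 (2.83-fold), the vacuolar exchanger NHX2 (2.12-fold) and the vacuolar proton pump VHP1 (2.08-fold) with the smallest p. Under tunicamycin 5 rose and 2 fell (28.2% and 27.6%), led by AHA1 (1.62-fold), NHX6 (1.83-fold) and VHP1 (1.84-fold). AHA2 was lower than in Col-0 at 0 h in gpa1-3, at 336 ± 44 CPM, and in the libraries labelled agb1-2, at 312 ± 30.1 CPM, against 612 ± 110 CPM (adjusted p = 7.1e-05 and 5.8e-06). NHX6 was higher in xlg1,2,3 (1.70-fold, adjusted p = 6.3e-05). The 0 h counts were 0 higher and 1 lower in gpa1-3 (6.1% and 7.6% of all genes), 1 higher and 2 lower in the libraries labelled agb1-2 (13.8% and 17.7%) and 2 higher and 0 lower in xlg1,2,3 (7.79% and 8.5%).

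Of 13 regulators of the SOS proteins or of HKT1, 12 were tested (ABI4, a repressor of HKT1, did not pass the filter). At 2 h of NaCl 4 rose and 3 fell in gpa1-3, 6 rose and 3 fell in the libraries labelled agb1-2, 4 rose and 3 fell in xlg1,2,3, and 4 rose and 4 fell in Col-0, with median log2 changes of 0.10, 0.41, 0.05 and -0.12. Set against the shares of all genes (26.5% to 28.4% higher and 27.0% to 27.9% lower), 4 and 4 of 12 in Col-0 were close to the background. In Col-0 the abscisic acid signalling phosphatases ABI2, which binds SOS2, and ABI1 rose 4.84- and 2.78-fold, and MPK6, a kinase that phosphorylates SOS1, rose 1.37-fold. At 24 h 2 rose and 6 fell (29.0% and 28.8% of all genes), with ABI1 2.06-fold higher, the annexin ANN4 7.31-fold lower and MOCA1, which makes the sphingolipids that sense sodium, 1.49-fold lower. Under tunicamycin 2 rose and 4 fell (28.2% and 27.6%), with GRF6, which encodes a regulatory phosphoprotein-binding protein, 1.77-fold higher, and GI, which holds SOS2 inactive without salt, 2.41-fold lower. At 0 h none was higher and 6 were lower in the libraries labelled agb1-2 than in Col-0 (13.8% and 17.7% of all genes), with ABI1 (1.57-fold), MOCA1 (1.35-fold) and MPK6 (1.15-fold) first. The counts were 0 higher and 1 lower in gpa1-3 (6.1% and 7.6% of all genes), where ABI2 was 1.53-fold lower. They were 1 higher and 0 lower in xlg1,2,3 (7.79% and 8.5%), where GRF6 was 1.18-fold higher.

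**Figure D5:**
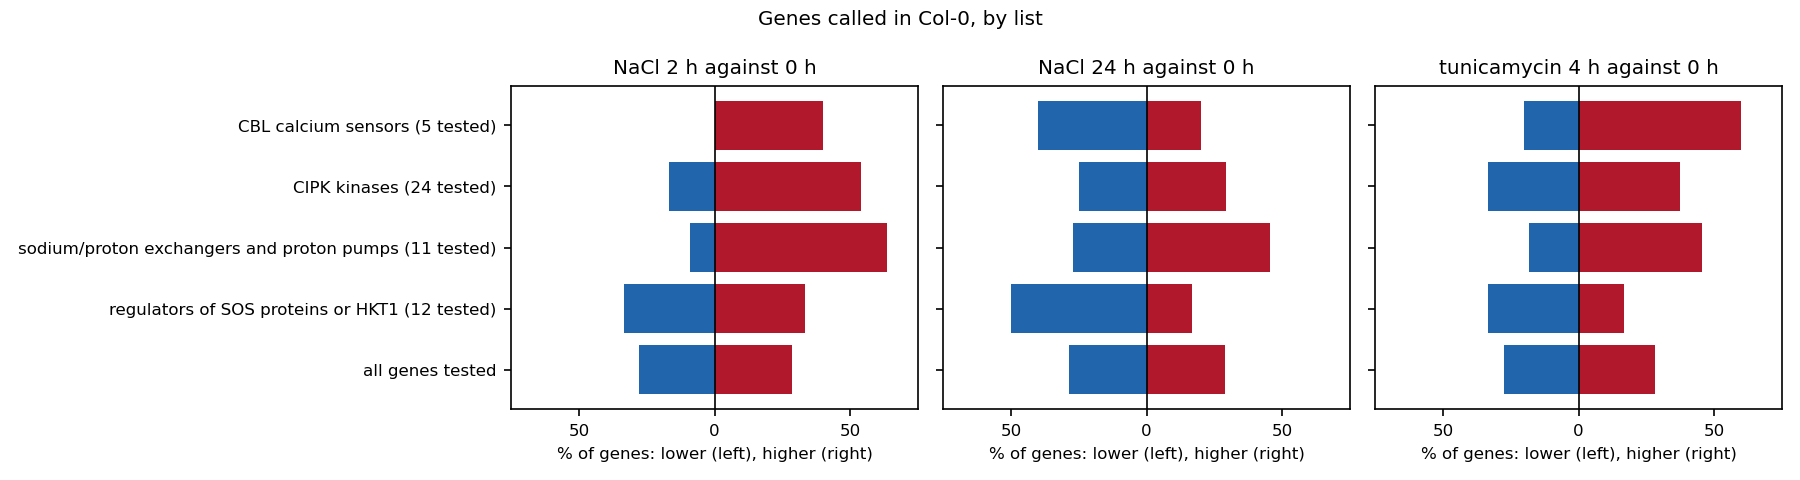
Share of tested genes called lower (left, blue) and higher (right, red) against 0 h in Col-0 (horizontal axis, percent) for 4 gene lists and for all genes tested, under 3 treatments. After 2 h of NaCl the bar for 13 of 24 CIPK kinases and that for 7 of 11 exchangers and pumps extend further to the right than the bar for all genes (28.4%).

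The genes whose group means followed each member most closely were taken from 10327 genes with at least 1 CPM on average and a range of at least 1 log2 unit, by Pearson's r of log2 CPM over the 16 groups. For SOS1 these were UMAMIT45, AT3G43670, AT3G28950, HPT1 and AT5G25770 (r = 0.957 to 0.979). For SOS2 they were JAZ11, AT5G52450, AT1G23040, APA1 and HVA22K (0.94 to 0.966). SOS3 was followed by GPX8, AAP5, AT3G07690, GUS1 and PMP22 (0.868 to 0.906), and CBL10 by ARAB-1, AT3G09035, HEME2, CRK30 and PDCB1 (0.908 to 0.927). For HKT1 they were AT4G24130, AT1G48100, FMO, MAN2 and ACC1 (0.916 to 0.956). No member was among the 5 closest genes of another. SOS1, which varied 1.81-fold between group means, and HKT1, at 0.661 CPM at most, fell outside the limits on level and range. Neither could be listed for another member, so their absence says nothing of how the members vary together.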

How the data were processed

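The authors deposited 1 Arabidopsis table whose values, 1.35% of them not whole, were treated like expected counts and rounded before testing; all values of the 5 genes were whole. STAR and TAIR10 are named in the submitters' processing notes, without versions, and the sources used here do not state the annotation or strand setting. Tables of other species were not used. In edgeR 4.0.16 (R 4.3.3), low genes were removed by filterByExpr at a minimum count of 10 and a minimum total of 15, TMM set the library scaling, and 1 quasi-likelihood model held a mean for each of 16 groups. Adjusted p is by the Benjamini-Hochberg method over all 20858 genes, and under 0.05 a gene is called. CPM uses TMM-scaled library sizes. The procedure was tested on simulated data. Named genes from other lists are the 3 called with the smallest p in each comparison described, with the targeted genes and the 5 genes closest to each member. The CBL6 and CBL9 values in mutants after 2 h of NaCl follow that rule, and NHX8 and GLDP1 were added as the close paralog of SOS1 and the gene that overlaps CBL10. Members, lists and tests were chosen with earlier results of these data known. Symbols, positions and sequences came from the TAIR10.1 assembly and its RefSeq annotation.
Alternatives were DESeq2 1.42.0, its size factors in edgeR, no filter, a replicate block, no rounding, only the groups compared, no replicate 3, and leaving out each library.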

Additional observations from a re-analysis of the deposited data

Results flagged for a closer look

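Of the 45 tests of whether a mutant's response differed from that of Col-0 in the 5 genes, 7 were called, all in SOS3 or CBL10. In the same comparisons 2.63% to 23.6% of all genes were called. Each of the 7 is a difference between groups in log2 response (mutant minus Col-0). For SOS3 the differences were 0.67 in xlg1,2,3 after 2 h of NaCl, 0.98 in gpa1-3 at 24 h of NaCl, 0.85 in gpa1-3 under tunicamycin and 0.76 in xlg1,2,3 under tunicamycin. For CBL10 they were -0.69 in the libraries labelled agb1-2 at 24 h of NaCl, -0.82 in gpa1-3 under tunicamycin and -1.07 in the libraries labelled agb1-2 under tunicamycin. The tests under tunicamycin rest on 2 libraries per group. All 7 share the Col-0 libraries of their condition and of 0 h. Only the SOS3 calls in gpa1-3 and the CBL10 call under tunicamycin in the libraries labelled agb1-2 held without any single library. The 45 tests include those of HKT1, which passed the filter through its libraries after 2 h of NaCl.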

How the results depend on the processing

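The counts of member calls in this section include HKT1, which passed the filter through its libraries after 2 h of NaCl. No result of the 5 genes reversed its direction. Of 185 member values, DESeq2 and no rounding changed 0 calls, the size factors of DESeq2 lost 1, no filter lost 2, leaving out replicate 3 of every group lost 6 and gained 1, and of 154 values fitted on the groups compared alone 7 were lost and 2 gained. Leaving out single libraries, in 1300 values, lost 53 calls and gained 13. With only the groups compared, 6 values were called between 24 h and 2 h of NaCl (main 10). No tested call was lost there, because the 4 HKT1 calls of the main fit were not tested in that setting. In the same setting 1 value was called for mutants against Col-0 under tunicamycin (main 4) and 0 for the difference of the 2 h response (main 1). That count was also 0 with the size factors of DESeq2 and with no filter. Without replicate 3, 2 of 15 were called for mutants at 24 h (main 4) and 1 of 15 for the difference of the 24 h response (main 2). Leaving out each library gave 17 to 19 calls for 2 h against 0 h, 11 to 13 for 24 h, 10 to 11 for tunicamycin, 9 to 11 for 24 h against 2 h, 4 for mutants at 0 h, 3 to 5 at 2 h, 2 to 4 at 24 h and 1 to 5 under tunicamycin. It gave 0 to 1, 1 to 3 and 2 to 4 for the differences of the 2 h, 24 h and tunicamycin responses. The cause of the calls that changed was not tested. Where 1 tunicamycin library was left, its spread was taken from the remaining groups. The replicate numbers were not taken to pair the samples, since not every pair of libraries with the same number had a correlation of deviations over 0.1. Over 306 pairs of the same number the median was 0.054 and 110 exceeded 0.1, against a median of -0.020 and 104 of 600 pairs with different numbers, and 29 of 44 libraries were nearest to their own number, a hint from the data of shared deviations. With the number as a block, SOS2 was called in xlg1,2,3 at 24 h (0.27, adjusted p = 0.043) and in the libraries labelled agb1-2 against Col-0 at 2 h (-0.28, adjusted p = 0.049), and no other call changed. Counts over all genes moved by over 1.5 times with only the groups compared for gpa1-3 against Col-0 (2569 against 4581 at 2 h, 550 against 1654 at 24 h, 1889 against 4148 under tunicamycin), for xlg1,2,3 (1340 against 2919, 2434 against 4070 and 1375 against 2745), for the libraries labelled agb1-2 under tunicamycin (1063 against 1851) and for the xlg1,2,3 difference of the 2 h response (80 against 549). Without replicate 3 they moved for the libraries labelled agb1-2 at 0 h (4364 against 6583) and for xlg1,2,3 at 24 h (1908 against 4070), and for the response differences of gpa1-3 (577 against 999) and agb1-2 (1649 against 2746) at 2 h, agb1-2 (3159 against 4922) and xlg1,2,3 (669 against 1926) at 24 h and agb1-2 (1497 against 2376) and xlg1,2,3 (787 against 1192) under tunicamycin. Single libraries also moved these counts by over 1.5 times. For gpa1-3 against Col-0 the count at 0 h was 1889 without Col-0 replicate 2 (main 2857), at 2 h 2971 without Col-0 replicate 2 (4581), at 24 h 1026 without its replicate 1 and 1005 without Col-0 replicate 2 (1654), and under tunicamycin 2319 without its replicate 2 and 2030 without Col-0 replicate 2 (4148). For the libraries labelled agb1-2 it was 786 without their replicate 2 and 669 without Col-0 replicate 2 under tunicamycin (1851). For xlg1,2,3 it was 1884 at 2 h without Col-0 replicate 2 (2919), 2541 at 24 h without its replicate 3 (4070), and under tunicamycin 1599 and 1349 without its replicates 1 and 2 and 1209 without Col-0 replicate 2 (2745). For the difference of the 2 h response it was, in gpa1-3 (999), 656 without its 0 h replicate 1, 643 without its 2 h replicate 3, 639 without Col-0 0 h replicate 2 and 503 without Col-0 2 h replicate 2. In xlg1,2,3 (549) it was 323 without its 0 h replicate 1, 327 and 317 without its 2 h replicates 2 and 3, 351 and 303 without Col-0 0 h replicates 1 and 2, and 304 and 1053 without Col-0 2 h replicates 2 and 3. For the 24 h response it was 783 in gpa1-3 without its 0 h replicate 1 (1186), and 1256 and 1191 in xlg1,2,3 without its 0 h replicate 1 or 24 h replicate 3 (1926). For the tunicamycin response it was 2093 in gpa1-3 without its replicate 2 and 1594 without Col-0 replicate 2 (3309), 1068 in the libraries labelled agb1-2 without their replicate 1 and 680 without Col-0 replicate 2 (2376), and 595 and 565 in xlg1,2,3 without its replicates 1 and 2 and 352 without Col-0 replicate 2 (1192). The share of calls that were higher in gpa1-3 at 24 h was 28.4% with only the groups compared and 29.4% without replicate 3, against 40.0%, and under tunicamycin it was 61.7% against 48.7% in gpa1-3, 59.5% against 46.8% in the libraries labelled agb1-2 and 53.9% against 42.1% in xlg1,2,3, all with only the groups compared. For agb1-2 it moved the other way, to 32.0%, without Col-0 tunicamycin replicate 2. For the xlg1,2,3 difference of the 2 h response it was 77.5% with only the groups compared and 40.1% without Col-0 NaCl 2 h replicate 3, against 51.4%. HKT1 is limited by depth, with 182 counts over 44 libraries.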
